A study of Mus musculus with 8 samples.

Results

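OP9 cells were compared with MC3T3 cells across all genes of an Affymetrix expression array. OP9 is a mouse stromal line that the study uses as a model of marrow stroma, and MC3T3 is an osteoblast-like mouse line. The comparison used 4 of the 8 arrays of the study, 2 of OP9 cells kept without leukemic pre-B cells and 2 of MC3T3 cells, with the groups taken from the sample labels. The labels give the strain as B6C3F1 for the OP9 and as Balb/c for the MC3T3 arrays. The growth protocol of the labels names OP9 Strawberry cells, which carry a retroviral mStrawberry gene, kept in OptiMEM with 10% FCS, whereas MC3T3 cells were grown in Dulbecco's Modified Eagle Medium with 10% FCS. The study used OP9 cells with and without that gene, and the array titles do not say which were hybridised, nor whether they had been sorted. The description of MC3T3 replicate 2 speaks of sorted cells, although its cell type label, like those of the other 3 arrays, names a culture. The study compared its co-cultured OP9 cells with OP9 cells given conditioned medium of a parallel co-culture. The array titles do not say whether the OP9 arrays used here are of such cells. Line, strain and medium, conditioned or not, and the virus if these cells carried it, cannot be told apart in any difference given here. Each pair of arrays is labelled as biological replicates, but no source names separate cultures, and the p-values therefore rest on a spread that may be technical.

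Stromal cells of the bone marrow hold and feed blood progenitors through surface molecules and secreted factors. CXCL12 retains progenitors in the marrow, KIT ligand and interleukin 7 support their survival and growth, and VCAM1 binds them to the stroma. The same mesenchymal cells can turn into fat cells under PPARG and C/EBPA or into bone-forming osteoblasts, which lay down type I collagen and mineralise it with the help of alkaline phosphatase. OP9 cells were derived from op/op mice, which lack functional M-CSF, and are widely used as a feeder layer for lymphocytes, and they can be turned into fat cells. MC3T3 cells come from newborn mouse calvaria, the skull bone, and mineralise in osteogenic medium.

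The deposited values are intensities that the authors had normalized between arrays, on a linear scale on which the lowest values of an array lay near 6 and the medians of the 4 arrays between 41.8 and 42.6. For each gene the brightest probe set by mean over the 8 arrays was used, and 10084 of 18194 named genes, those at 100 or above on at least 2 of the 8 arrays, were tested with limma. Calls of higher or lower required 2-fold or more between the means of the lines together with an adjusted p under 0.05. The median absolute log2 difference between the 2 arrays of a line was 0.0694 for OP9 and 0.0885 for MC3T3, against 0.42 between the lines. The added poly-A control transcript dap read 966 and 963 on the OP9 arrays and 1576 and 2980 on the MC3T3 arrays, and the 18S probe set 111 and 121 against 193 and 410. The NIH3T3 arrays of the study entered the fit and the rankings over the 4 groups. On them dap read 18.1 and 13.9 and the 18S probe set 8508 and 9418. Their median absolute log2 difference between arrays was 0.143. The part of these readings in the differences and rankings was not tested. The ratio of 3' to 5' signal of Gapdh, a measure of RNA integrity, lay between 0.90 and 0.95 on the 4 arrays. A share of 19.9% of the genes tested was called, 1062 genes (10.5%) higher and 949 genes (9.41%) lower in OP9 than in MC3T3 cells, and the arrays of the lines overlapped for 0 of the called genes. Of the 2011 called genes, 1951 were still called in the same direction without MC3T3 replicate 2, the array described as sorted cells, and 1940 without replicate 1. The median log2 difference of all genes tested was 0.03. Counts of called genes in each list below are to be read beside these shares of 10.5% higher and 9.41% lower.

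Among the called genes, 156 were at least 10-fold higher and 112 at least 10-fold lower in OP9 cells. The differences of at least 100-fold, 12 upwards and 6 downwards, were all against a line whose own mean was below 50, so that their size depends on the background. Of the genes called higher, 478 had a mean below 100 in MC3T3 cells, and of those called lower, 357 had a mean below 100 in OP9 cells. The remaining 584 and 592 genes were at 100 or above in both lines. The 12 genes with the largest difference upwards held the fat cell genes Adipoq, Lpl, Fabp4 and Rbp4, the matrix gene Efemp1, the microsomal glutathione transferase gene Mgst1, Epas1, which encodes the hypoxia-inducible factor 2 alpha, the vessel and niche factor gene Angpt1, the sphingosine phosphate receptor gene S1pr3, Tmem26, the haptoglobin gene Hp and the imprinted gene Mest. Mgst1 read 8241 and 8338 in OP9 and 42.3 and 40.5 in MC3T3 cells, 200.4-fold apart (limma, adjusted p = 1.73e-09). S1pr3 read 1715 and 1497 against 12.5 and 11, and Tmem26 2978 and 3158 against 25.7 and 23.5. Both arrays of OP9 cells were thus far above both arrays of MC3T3 cells for each of these 3 genes.

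Among the 12 genes with the largest difference downwards were Cd34, the guidance gene Slit2, the phospholipase gene Pla2g7, the cytochrome gene Cyp1a1, the developmental gene Eya1, the retinoic acid binding protein gene Crabp2, Mfsd6, Fxyd5, the BMP and Wnt antagonist gene Sostdc1, the carbonic anhydrase gene Car9 and the N-cadherin gene Cdh2. Crabp2 read 27.9 and 28.8 in OP9 and 2829 and 3178 in MC3T3 cells, 106-fold apart (limma, adjusted p = 4.31e-09). Pla2g7 read 14.9 and 15.3 against 2195 and 2493. For these 2 genes both MC3T3 arrays lay above both OP9 arrays. Mfsd6, encoding a membrane transporter of the major facilitator family, was 94.2-fold and Fxyd5, encoding a modulator of the sodium pump, 77.3-fold lower in OP9 cells (limma, adjusted p = 1.53e-07 and 4.31e-09).

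**Figure D1:**
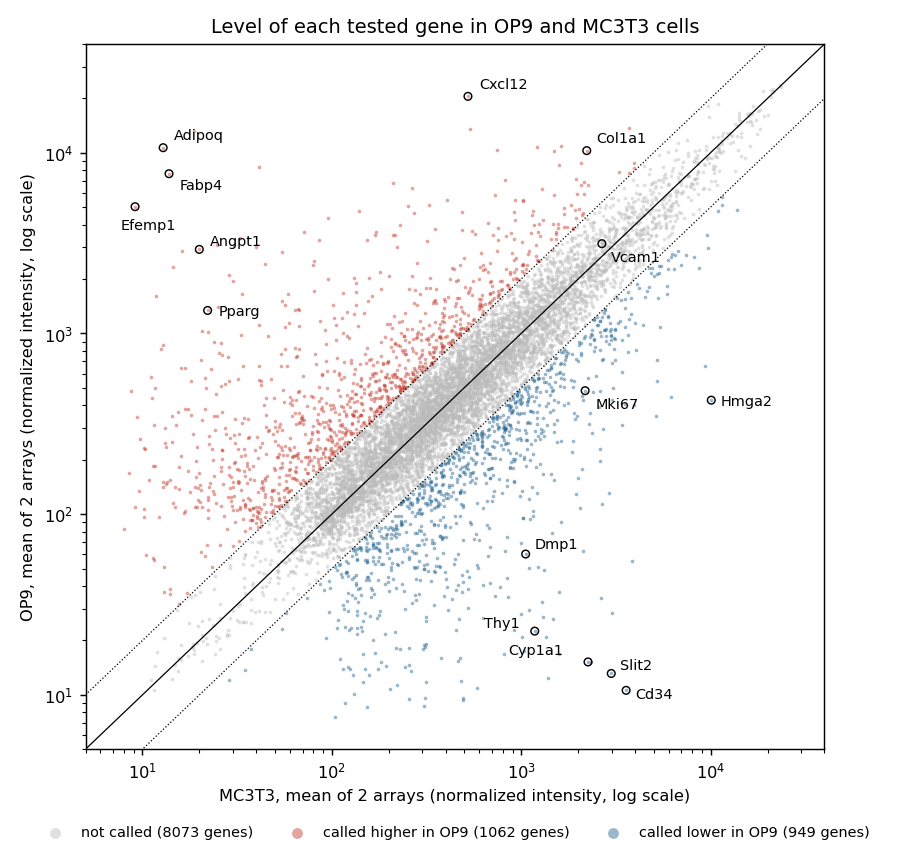
Mean normalized intensity of each of the 10084 genes tested in MC3T3 cells (horizontal axis) and OP9 cells (vertical axis), both on log scales, with red points for the 1062 genes called higher and blue points for the 949 called lower in OP9 cells, a solid line at equal levels and dotted lines at 2-fold. The fat cell genes Adipoq and Fabp4 lie at the upper left edge, Cd34 and Slit2 at the lower right edge, and Vcam1 close to the diagonal.

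The labels of the lines were checked against genes that define each tissue. All 6 fat cell markers measured, Pparg, Cebpa, Adipoq, Fabp4, Lpl and Cidec, were higher in OP9 cells. None of them reached 100 in MC3T3 cells, so that they passed the filter through other arrays. The fat cell markers Plin1 and Cfd had no entry among the named genes. Since the lines were measured in bulk, a few cells with much RNA of a gene and many cells with little cannot be told apart. Of 9 tested marrow stroma markers, 5 were higher in OP9 cells (Cxcl12, Igf1, Pdgfra, Ebf3 and Foxc1) and none was lower (9 higher and 0 lower at an unadjusted p below 0.05). These counts rest on the probe set used for each gene, and other probe sets of Kitl and Vcam1 were not all higher. The leptin receptor gene Lepr, a marker of perivascular marrow stroma in vivo, was not tested and lay low in both lines, with 23.6 and 19.3 in OP9 and 21.3 and 18.8 in MC3T3 cells. Of the 7 osteoblast markers measured, only Col1a1 and Dmp1 reached 100 in MC3T3 cells. The osteoblast markers Runx2, Bglap and Spp1 had no entry among the named genes, and their levels in the lines are therefore not known here.

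Col1a1, encoding the main chain of type I collagen, read 9986 and 10568 in OP9 and 2239 and 2200.3 in MC3T3 cells, and was 4.63-fold higher in OP9 cells (limma, adjusted p = 7.44e-07). Phex, encoding a peptidase of bone cells that regulates phosphate, read 131 and 117 against 29.7 and 28.6 and was 4.24-fold higher in OP9 cells (limma, adjusted p = 1.53e-05). Both arrays of OP9 cells were thus above those of the osteoblast-like line for these 2 genes. Dmp1, encoding a matrix protein of osteocytes and mineralising bone, went the other way, with 58.3 and 61.9 in OP9 and 969.7 and 1142 in MC3T3 cells, 17.5-fold lower in OP9 cells (limma, adjusted p = 3.19e-08), and its 3 probe sets all lay lower in OP9 cells, with log2 differences between -3.18 and -5.11. The genes of alkaline phosphatase (Alpl), osterix (Sp7), bone sialoprotein (Ibsp) and the parathyroid hormone receptor (Pth1r) stayed below 100 on all 4 arrays and were not tested. Alpl read 39.99 and 47.5 in OP9 and 31.9 and 23.1 in MC3T3 cells, and Sp7 68.9 and 74.2 against 61.2 and 65.4. The MC3T3 arrays therefore carry the label of the line but, Col1a1 and Dmp1 apart, no signal of 100 or above for the osteoblast markers measured here. Of 8 fibroblast and mesenchyme markers 2 were higher and 1, Thy1, was lower in OP9 cells.

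**Figure D2:**
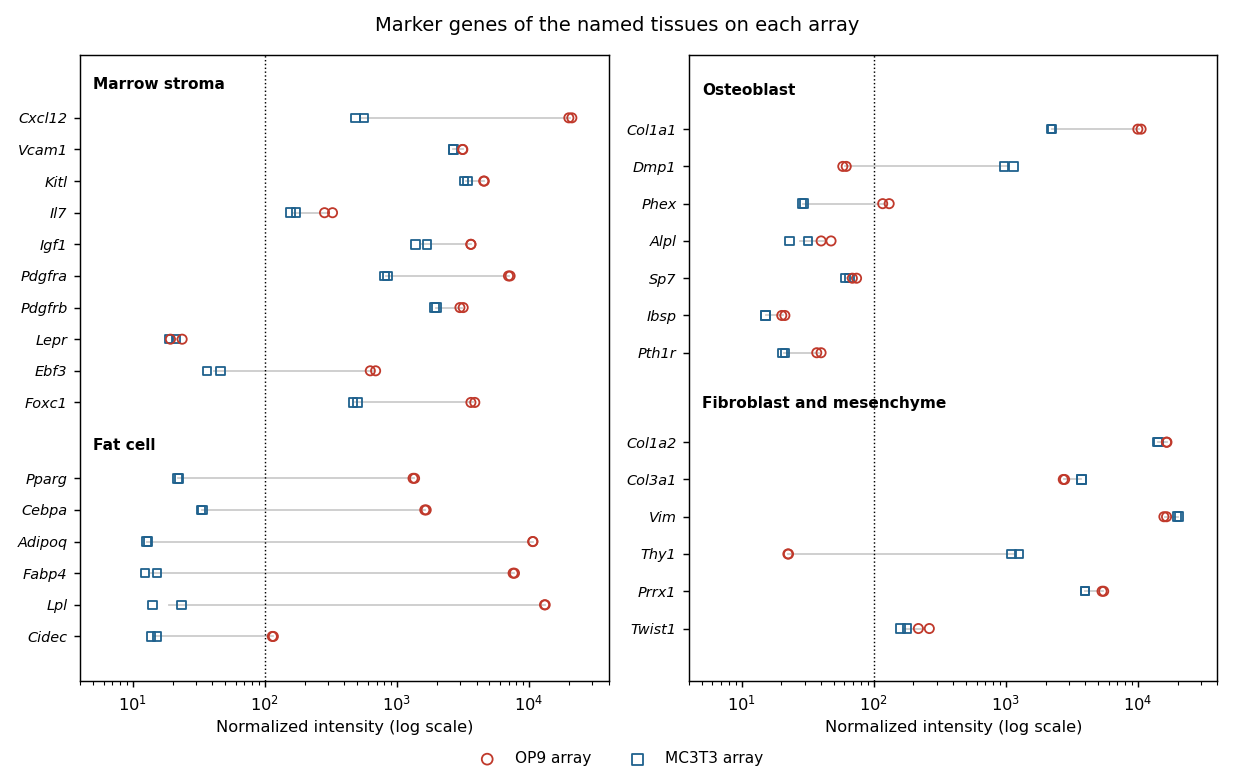
Normalized intensity (log scale) of marker genes of marrow stroma, fat cells, osteoblasts and fibroblasts on each OP9 array (red circles) and MC3T3 array (blue squares), with a grey line between the means of the lines and a dotted line at 100. The 6 fat cell genes are far apart between the lines, while 4 of the 7 osteoblast genes lie below 100 in both.

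In the wider list of osteoblast differentiation, 6 of 19 tested genes were higher and 4 lower in OP9 cells, with a median log2 difference of 0.43. Ptger4, encoding a prostaglandin E receptor, read 184 and 179.6 in OP9 and 32.4 and 24.9 in MC3T3 cells, 6.41-fold higher in OP9 cells. Ogn, encoding the matrix proteoglycan osteoglycin, was 6.74-fold higher, at 10603 and 11129 against 1531 and 1697. The genes lower in OP9 cells were Dmp1, the phosphate transporter gene Slc20a1 (4.67-fold), the transcription factor gene Mef2c (3.66-fold) and Cdh11, encoding the cadherin of osteoblasts, at 2692 and 2628 in OP9 and 8501 and 7914 in MC3T3 cells. The largest adjusted p of these genes from limma was 3.1e-06. Of 5 tested cartilage genes, Matn2 and Sox5 were higher (5.66-fold and 6.09-fold) and none was lower (1 lower at an unadjusted p below 0.05).

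Of 22 tested factors of the marrow niche and of B-lymphoid support, 10 were higher and 3 lower in OP9 cells, with a median log2 difference of 0.73. OP9 cells had the highest mean of the 4 groups of the study for 15 of the 22, or 68.2%, against 24.6% of all genes tested. The other groups were MC3T3 cells, NIH3T3 fibroblasts and OP9 cells kept with pre-B cells, so that the 4 groups are not 4 lines. Cxcl12 read 19989 and 21062 in OP9 and 487 and 560.4 in MC3T3 cells, so that MC3T3 cells had a clear but far lower signal, and its 3 probe sets were all higher in OP9 cells, with log2 differences of 1.72, 5.30 and 5.97. Angpt1, encoding angiopoietin 1, a ligand of the TIE2 receptor on vessels and blood stem cells, read 2921 and 2918 against 18.6 and 21.3 and was 147-fold higher (log2 difference 7.20 ± 0.13 (SE), limma, adjusted p = 1.07e-08). Foxc1, encoding a transcription factor of the marrow niche, read 3626 and 3881 against 465 and 504 and was 7.75-fold higher. Ebf3, encoding another niche transcription factor, was 16.1-fold higher, with both MC3T3 arrays below 50 (36.3 and 46). Dlk1, encoding a Notch-like surface protein of preadipocytes and stroma, read 740.04 and 776 in OP9 and 21.4 and 31 in MC3T3 cells.

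Several of the best known support factors were measured in both lines at levels less than 2-fold apart. Kitl read 4578 and 4528 in OP9 and 3424 and 3226 in MC3T3 cells, a log2 difference of 0.45 ± 0.07 (SE) (limma, adjusted p = 0.00048). Il7 read 325 and 283 against 172 and 157, a log2 difference of 0.88 ± 0.09 (SE), and Vcam1 3130.5 and 3149 against 2683 and 2654. The arrays did not overlap for any of these 3 genes, but their differences stayed below the minimum fold. The other probe sets of Kitl gave log2 differences of -0.36 to 0.29, and those of Vcam1 0.20 and -0.06. The other probe set of Il7 gave 0.43, with means of 144 in OP9 and 106 in MC3T3 cells. The study itself lists Il7 and Vcam1 at lower values in OP9 than in MC3T3 cells, from its own normalization. Igf1, encoding insulin-like growth factor 1, was 2.38-fold higher in OP9 cells by the probe set used, at 3627 and 3623 against 1375 and 1689.95, while its other 3 probe sets gave log2 differences of 0.71 to 1.02. The 3 niche genes lower in OP9 cells were Cdh2, Ccn3, encoding a matricellular protein, and Pdpn, encoding podoplanin. Pdpn read 298 and 296 in OP9 and 2469 and 2922 in MC3T3 cells and was 9.04-fold lower in OP9 cells (limma, adjusted p = 2.02e-07).

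Chemokines attract leukocytes, and 4 of 12 tested genes were higher and 1 lower in OP9 cells (median log2 difference 0.16). Besides Cxcl12, these were Cxcl5 and Cxcl1, which draw neutrophils, and Ccl9. Ccl9 read 1552 and 1762 in OP9 and 59.7 and 57.3 in MC3T3 cells, Cxcl5 368 and 317 against 9.41 and 9.24, and Cxcl1 397 and 403 against 49.1 and 38.4. In all 3 the MC3T3 arrays were below 100 and the OP9 arrays above it. Ccl2, which draws monocytes, read 129.7 and 129 in OP9 and 426 and 400.5 in MC3T3 cells and was 3.19-fold lower in OP9 cells (limma, adjusted p = 9.85e-07).

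Among interleukins, the interleukin 1 system and TNF ligands, 6 of 11 tested genes were higher and 2 lower (median log2 difference 1.06). Interleukin 1 drives inflammation through IL1R1 and its partner IL1RAP, and the product of Il1rn blocks that receptor. Il1rn read 2448 and 2416 in OP9 and 44.2 and 44.7 in MC3T3 cells. Il1r1 was 3.68-fold higher in OP9 cells, at 702 and 657 against 201 and 170.1, and Il18, encoding a cytokine of the same family, 4.56-fold higher, at 575 and 612 against 116 and 146. Il1rap was lower in OP9 cells instead, at 56.5 and 54.8 against 149 and 152 (2.7-fold, limma, adjusted p = 0.000447). The call of Il1r1 was lost when the probe sets of a gene were averaged (log2 difference 0.97). Il15, encoding a growth factor of natural killer and T cells, read 94.3 and 103 against 41.2 and 35.5. Cd80, encoding a costimulator of T cells, was 2.18-fold higher in OP9 cells (limma, adjusted p = 0.00916), but this call was lost without OP9 replicate 2 (adjusted p = 0.051 from limma) and without MC3T3 replicate 1 (adjusted p = 0.0642), and the call of Il16 as lower, at 35.1 and 47.3 against 82 and 91.9, without OP9 replicate 1 (adjusted p = 0.0514).

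**Figure D3:**
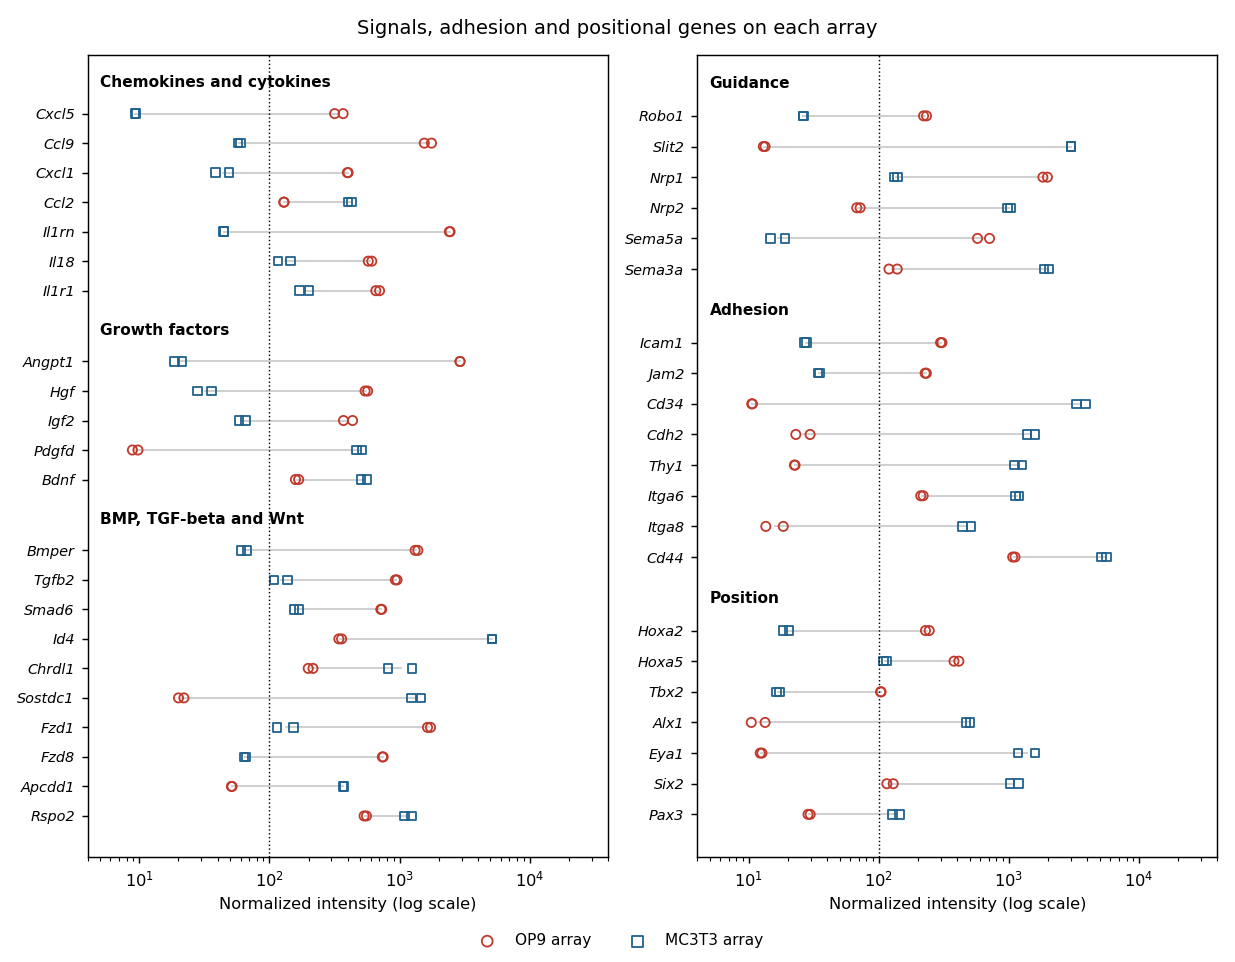
Normalized intensity (log scale) of chemokines and cytokines, growth factors, BMP, TGF-beta and Wnt pathway genes, guidance genes, adhesion molecules and positional genes on each OP9 array (red circles) and MC3T3 array (blue squares), with a grey line between the means of the lines and a dotted line at 100. The 2 arrays of a line lie close together beside the distance between the lines, and genes of the same family, such as Nrp1 and Nrp2, lie on opposite sides.

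Of 26 tested growth factor genes, 6 (23.1%) were higher and 3 (11.5%) lower in OP9 cells (median log2 difference -0.09). Hgf, encoding hepatocyte growth factor, read 544 and 569 in OP9 and 28.1 and 35.7 in MC3T3 cells and was 17.6-fold higher (limma, adjusted p = 1.08e-07). Angptl4, encoding an inhibitor of lipoprotein lipase, read 3028 and 2958 against 40.1 and 39.9, and Igf2, encoding a fetal insulin-like growth factor, 371 and 436 against 65.6 and 58.2. Both MC3T3 arrays were below 100 for these 3 genes. Pdgfd, encoding a platelet-derived growth factor, showed the opposite pattern, with 9.76 and 8.85 in OP9 and 514 and 467 in MC3T3 cells. Bdnf, encoding a neurotrophin, was 3.28-fold lower in OP9 cells. On the receptor side, 6 of 41 tested genes were higher and 6 lower (median 0.34). This was 14.6% each way, near the 10.5% higher and 9.41% lower over all genes tested. Pdgfra, encoding a receptor of platelet-derived growth factors, read 6978 and 7178 against 848 and 804 and was 8.58-fold higher in OP9 cells, and Fgfr2, encoding a fibroblast growth factor receptor, 9.66-fold higher, at 1847 and 1679 against 191 and 174. Axl, encoding a receptor of the growth arrest factor GAS6, was 5.56-fold lower, at 605 and 623 against 3477 and 3353. By limma the adjusted p of these called growth factor and receptor genes was at most 2.58e-06.

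Bone morphogenetic proteins and TGF-beta signal through SMAD proteins and are held in check by secreted antagonists and by inhibitory SMADs, and ID proteins are among their targets. In this pathway 10 of 37 tested genes were higher and 3 lower in OP9 cells (median log2 difference 0.24). Bmper, encoding a secreted modulator of BMPs, read 1383 and 1318 in OP9 and 67.3 and 60.8 in MC3T3 cells and was 21.1-fold higher. Tgfb2, encoding a TGF-beta ligand, read 929 and 957 against 108 and 138 (7.73-fold), and Smad6, encoding an inhibitory SMAD, 718 and 729.99 against 154 and 168 (4.49-fold). The groups did not overlap for any of these 3 genes. Id4 read 359 and 342 in OP9 and 5158 and 5139 in MC3T3 cells and was 14.7-fold lower in OP9 cells. The BMP antagonist gene Chrdl1 was 4.87-fold lower, with its MC3T3 arrays further apart than those of most genes (1246 and 818). The third lower gene was Inhba, encoding a chain of the TGF-beta family ligand activin, at 91.5 and 103 against 222 and 226 (2.31-fold lower). Sostdc1, which encodes another antagonist and is not in this list, read 22 and 20.01 against 1241 and 1463. The receptor genes Bmpr1a and Tgfbr2 were less than 2-fold apart, at 989 and 982 against 846 and 818 and 1629 and 1663 against 2105 and 2153. For the called genes among these, adjusted p from limma reached at most 1.99e-05.

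In the Wnt pathway, whose ligands bind frizzled receptors and stabilise beta-catenin, 7 of 20 tested genes were higher and 2 lower (median log2 difference 0.27). The frizzled receptors made up most of the higher genes, with 4 of 6 tested higher and none lower (6 higher and 0 lower at an unadjusted p below 0.05 from limma). Of 9 frizzled genes on the array, 6 had a mean of 100 or above in OP9 and 4 in MC3T3 cells. A gene can pass the filter through its OP9 values alone, so that these counts depend in part on the filter. Fzd1 read 1641 and 1730.3 in OP9 and 114 and 153 in MC3T3 cells, Fzd8 749 and 738 against 64 and 66, and Fzd5 1097 and 1164 against 179.9 and 212, with 12.8-fold, 11.5-fold and 5.79-fold higher levels in OP9 cells. Both lines had signal for Fzd5, whereas the MC3T3 arrays were below 100 for Fzd8. Dkk3, encoding a secreted relative of Wnt antagonists, was 5.4-fold higher. Apcdd1, encoding a membrane inhibitor of Wnt signals, was 7.2-fold lower, at 51 and 51.6 against 367 and 373, and Rspo2, encoding an enhancer of Wnt signals, 2.14-fold lower. The largest adjusted p of these genes was 2.64e-05 from limma. The call of Rspo2 was lost when the probe sets of a gene were averaged (log2 difference -0.57).

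In the Notch pathway 5 of 13 tested genes were higher and 1 lower in OP9 cells (median log2 difference 0.20). Dll1, encoding a ligand, read 189 and 219 in OP9 and 88.6 and 87.3 in MC3T3 cells (2.31-fold higher), and the receptor gene Notch3 183 and 177 against 54.2 and 52 (3.39-fold higher). Notch1 was lower in OP9 cells, at 199.9 and 209 against 445 and 489 (2.28-fold, limma, adjusted p = 0.00141). The call of Notch1 was lost when probe sets were averaged (log2 difference -0.85), and without _x_at and _s_at probe sets 2 genes of the list were called higher in place of 5. Of 9 tested IGF binding protein genes and their regulators, 4 were higher and 1 lower (median -0.14), and 2 were lower without OP9 replicate 2 or without MC3T3 replicate 1. Pappa, encoding a protease that cuts IGF binding proteins, read 410.4 and 473 against 51.2 and 47.7, and Igfbp7 2558 and 2654 against 491 and 509.7, both higher in OP9 cells. Igfbp6 read 27.6 and 28.3 in OP9 and 1013 and 991 in MC3T3 cells and was 35.9-fold lower in OP9 cells.

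Fat cells form when PPARG and C/EBPA switch on genes of lipid uptake, storage and fat hormones. Of 22 tested fat cell transcription factor genes, 10 were higher and 1 lower in OP9 cells (median log2 difference 0.68). Of 25 on the array, 20 had a mean of 100 or above in OP9 and 14 in MC3T3 cells. The count thus depends in part on the filter, and without it 10 of the 25 were higher and 1 lower. Pparg read 1358 and 1323 in OP9 and 21.9 and 22.3 in MC3T3 cells and was 60.7-fold higher (log2 difference 5.92 ± 0.07 (SE), limma, adjusted p = 3.32e-09). Cebpa read 1622 and 1663 against 32.9 and 33.8 (49.2-fold). Both MC3T3 arrays were below 50 for the 2 master regulators. Ebf1, encoding a factor of B cells and of fat progenitors, read 2146 and 1922 against 139 and 122, and Prdm16, encoding a factor of brown fat, 137 and 164 against 12.4 and 13.3. Cebpb and Cebpd, which act earlier than Cebpa, were below 2-fold, with means of 1074 and 502 in OP9 and 1317 and 782 in MC3T3 cells. Klf4, encoding a factor of stem cells and epithelia, was lower in OP9 cells, at 405 and 406 against 3562 and 3523 (8.74-fold).

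Of 34 tested genes of fat hormones, lipid droplets and lipid synthesis, 15 were higher and 3 lower in OP9 cells, with a median log2 difference of 0.40. Of 43 such genes on the array, 33 had a mean of 100 or above in OP9 and 22 in MC3T3 cells. The count thus depends in part on the filter, and without it 16 of the 43 were higher and 4 lower. Adipoq, encoding the hormone adiponectin, read 10697 and 10639 in OP9 and 13 and 12.7 in MC3T3 cells, 829.9-fold higher (log2 difference 9.70 ± 0.09 (SE), limma, adjusted p = 1.73e-09). Lpl, encoding lipoprotein lipase, read 13237 and 13078 against 23.4 and 14.1, and Fabp4, encoding the fatty acid carrier of fat cells, 7566 and 7749 against 12.3 and 15.3. The 3 genes were near the bottom of the scale in MC3T3 cells and among the brightest decile in OP9 cells. Rbp4, encoding the retinol carrier, was 178-fold and Cd36, encoding a fatty acid transporter, 65.6-fold higher in OP9 cells. The droplet gene Cidec was low also in OP9 cells, at 116 and 114 against 15.2 and 13.7. Genes of fatty acid synthesis did not share this direction, and all 8 tested had lower means in OP9 than in MC3T3 cells, 2 of them called lower and none higher (7 lower and 0 higher at an unadjusted p below 0.05). Acss2, encoding an acetyl-CoA synthetase, read 183 and 175 in OP9 and 878 and 927 in MC3T3 cells (5.04-fold lower), and Scd1, encoding a desaturase, 1079 and 1099 against 3450.3 and 3651 (3.26-fold lower). Fasn, encoding fatty acid synthase, had means of 826 and 1443 and was not called. The group of fatty acid synthesis was formed after the values were seen.

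Cholesterol is made from acetyl-CoA by the mevalonate pathway under the control of SREBP2. By limma, 12 of 21 tested genes of this list were lower in OP9 cells and none was higher (1 higher and 18 lower at an unadjusted p below 0.05), with a median log2 difference of -1.17. Of the 17 enzymes, 11 were lower, and all 17 had a lower mean in OP9 than in MC3T3 cells. MC3T3 cells had the highest mean of the 4 groups of the study for 19 of the 21 genes, or 90.5%, against 27.7% of all genes tested. The count of 12 was the same when each array was left out in turn. Fdps, encoding farnesyl diphosphate synthase, read 2348 and 2252 in OP9 and 8813 and 8563 in MC3T3 cells (3.78-fold lower), Mvk, encoding mevalonate kinase, 413 and 447 against 1495 and 1501 (3.49-fold lower), and Idi1, encoding an isomerase, 899.7 and 1025 against 2974 and 3011 (3.12-fold lower). Both arrays of MC3T3 cells were above both arrays of OP9 cells for each enzyme named. Stard4, encoding a sterol carrier, was 3.36-fold lower. The regulator genes Srebf2 and Scap were below 2-fold, with means of 703 and 867 in OP9 and 659 and 701 in MC3T3 cells. The largest adjusted p of the called genes named was 2.5e-06 from limma.

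The cell cycle list holds cyclins and their kinases, the MCM helicase that opens replication origins, DNA synthesis genes and mitotic genes. OP9 cells had lower levels of 28 of the 33 tested genes and a higher level of none by limma (0 higher and 31 lower at an unadjusted p below 0.05), and the median log2 difference was -1.59, against 0.03 over all genes. Without 1 array in turn, 26 to 28 genes were lower. MC3T3 cells had the highest mean of the 4 groups for 31 of the 33 genes, or 93.9%. Among the groups within the list, formed after the values were seen, all 6 genes of the MCM helicase and 5 of 7 cyclin genes were lower in OP9 cells.

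Cdc6, encoding a loader of the helicase, read 32.4 and 21.5 in OP9 and 299.6 and 332 in MC3T3 cells and was 12-fold lower in OP9 cells (log2 difference -3.58 ± 0.20 (SE), limma, adjusted p = 2.43e-06). Ccne2, encoding an S phase cyclin, read 41.3 and 50.9 against 544 and 425 (10.5-fold), and Mcm5 299.8 and 262 against 2397 and 2328 (8.44-fold). Bub1, encoding a kinase of the spindle checkpoint, read 195 and 183 against 1298 and 1224 (6.68-fold), so that genes of both S phase and mitosis were at lower levels on the OP9 arrays. Mki67, a general marker of cycling cells, had means of 482 and 2177. The kinase genes Cdk2 and Cdk4 were not called, with means of 385 and 4415 in OP9 and 419.9 and 4181 in MC3T3 cells (limma, adjusted p = 0.267 and 0.36).

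Of 20 tested p53 targets and inhibitors of cyclin-dependent kinases, 7 were higher and 1 lower in OP9 cells (median log2 difference 0.30). Cdkn2b, encoding the inhibitor p15, read 984 and 1066 in OP9 and 25.1 and 19.4 in MC3T3 cells, and Gadd45a, encoding a stress response protein, 3648 and 3668 against 73.9 and 68.5. Btg2, encoding an inhibitor of proliferation, was 17.1-fold higher, at 4728 and 4560.4 against 267 and 276. Both OP9 arrays were far above both MC3T3 arrays for all 3. Cdkn2a read 50.7 and 50.8 in OP9 and 12.3 and 13.7 in MC3T3 cells and thus stayed below 100 in both. Cdkn2d was 2.37-fold lower in OP9 cells. The p53 target gene Cdkn1a had means of 4853 and 4529 and was not called.

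Promoters of genes that move together were read from RefSeq windows of build GRCm38.p6, limited to the 250 bases before the annotated start. Both strands were searched for CCAAT, for the cell cycle element TTTGAA and for the E2F letters TTTCCCGC, TTTCGCGC, TTTGGCGC and TTTGCCGC, which can overlap each other. Of the 28 cell cycle genes lower in OP9 cells, 23 had a window, 25 windows in all. CCAAT was in 21 of these (84%), TTTGAA in 7 (28%) and the E2F letters in 5 (20%). Of all 32851 windows of the table, 33.8%, 16% and 1.86% held them, and of the 10613 windows of the genes tested 35.3%, 10.4% and 3.47%. Of the 966 windows of all genes called lower, 39%, 12.9% and 4.87% held them. As 28 of the 33 tested cell cycle genes were lower, these shares cannot be told apart from those of the list as a whole. Of the 12 cholesterol genes lower in OP9 cells, 10 had a window, and 10 of 11 windows (90.9%) held CCAAT. In the respiratory chain genes the share was 28.1% of 32 windows. A match describes the letters of the window and shows neither binding nor a cause.
For each of the 2 lists, windows came from its named genes with a single window, with genes of a certain chromosome left out. They were ranked by how many kinds of letters they held and then by the number of matches. The first windows of each list are printed, to show where the letters lie before the start. They run 5′ to 3′ on the strand of the gene and end at the base before the start, with matches in capitals.
Mcm5: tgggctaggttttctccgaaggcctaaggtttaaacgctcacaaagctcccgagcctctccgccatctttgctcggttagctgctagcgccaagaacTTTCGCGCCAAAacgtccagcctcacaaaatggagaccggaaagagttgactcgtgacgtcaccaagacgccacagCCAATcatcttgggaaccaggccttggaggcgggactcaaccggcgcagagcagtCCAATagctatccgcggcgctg
Bub1: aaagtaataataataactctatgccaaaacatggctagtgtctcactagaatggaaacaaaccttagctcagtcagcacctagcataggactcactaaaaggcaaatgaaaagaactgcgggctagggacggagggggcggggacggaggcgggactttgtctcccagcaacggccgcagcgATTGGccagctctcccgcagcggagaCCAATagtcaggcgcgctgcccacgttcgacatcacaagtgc
Mvk: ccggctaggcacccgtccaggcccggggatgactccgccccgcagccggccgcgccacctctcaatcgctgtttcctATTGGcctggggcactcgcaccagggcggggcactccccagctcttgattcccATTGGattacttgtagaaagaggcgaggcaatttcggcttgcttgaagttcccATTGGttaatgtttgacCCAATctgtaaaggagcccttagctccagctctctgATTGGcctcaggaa
Idi1: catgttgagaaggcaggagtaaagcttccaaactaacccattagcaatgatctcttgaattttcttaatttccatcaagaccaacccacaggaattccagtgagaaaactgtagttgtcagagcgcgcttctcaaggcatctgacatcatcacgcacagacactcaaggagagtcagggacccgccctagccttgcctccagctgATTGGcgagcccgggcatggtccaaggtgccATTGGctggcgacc
Mcm5 (chr8:75109259-75109508, + strand) holds CCAAT 77 and 22 bases before the start and a pair of overlapping E2F matches, on opposite strands, that begin 153 and 149 bases before it. Bub1 (chr2:127831860-127832109, - strand) holds CCAAT on either strand 68 and 42 bases before the start. Mvk (chr5:114444019-114444268, + strand) holds 5 matches to CCAAT between 173 and 10 bases before the start, and Idi1 (chr13:8885356-8885605, + strand) 2 between 45 and 10 bases before it.

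Low oxygen stabilises HIF proteins, which raise genes of glucose uptake and glycolysis. In the list of glycolysis and hypoxia targets 2 of 28 tested genes were higher and 12 lower in OP9 cells, with a median log2 difference of -0.83. All 11 glycolytic enzyme genes had lower means in OP9 than in MC3T3 cells, 5 of them called lower. MC3T3 cells had the highest mean of the 4 groups of the study for only 5 of the 28 genes. This was 17.9%, against 27.7% of all genes tested. Of the 11 glycolytic enzyme genes, 4 were highest in MC3T3 cells. Car9, encoding a carbonic anhydrase that HIF1 induces strongly, read 16.6 and 18.4 in OP9 and 1016 and 1061 in MC3T3 cells (59.5-fold lower), and Ndrg1, encoding a stress response protein, 40.04 and 49.1 against 824 and 855 (18.9-fold lower). Slc2a1, encoding the glucose transporter GLUT1, read 323 and 376 against 1886 and 2038 (5.62-fold lower), and Pfkp, encoding a phosphofructokinase, 248 and 241 against 1100.3 and 1160.1 (4.63-fold lower). All 4 genes were higher on both MC3T3 arrays than on either OP9 array (largest adjusted p = 5.1e-07 from limma). The 2 genes higher in OP9 cells were Epas1 and Adm, encoding the peptide adrenomedullin. Epas1 read 2317 and 2361 against 17.1 and 12 and was 163-fold higher, while Hif1a had means of 4267 in OP9 and 2808 in MC3T3 cells and was not called. Vegfa, also a target, read 249 and 253 against 367 and 307.
The hypoxia response letters GACGTG and GCACGTG, which can overlap, were in 6 of the 13 windows (46.2%) of the 11 lower genes with a window, against 7.33% of all windows and 10.6% of those of the genes tested. In the windows of all genes called lower the share was 7.66%. The list was chosen to hold hypoxia targets, so that its share describes the list and not the genes lower in OP9 cells. Slc2a1 is shown as a named gene of this list whose window holds a match, which begins 37 bases before the start (chr4:119108495-119108744, + strand), in capitals.
Slc2a1: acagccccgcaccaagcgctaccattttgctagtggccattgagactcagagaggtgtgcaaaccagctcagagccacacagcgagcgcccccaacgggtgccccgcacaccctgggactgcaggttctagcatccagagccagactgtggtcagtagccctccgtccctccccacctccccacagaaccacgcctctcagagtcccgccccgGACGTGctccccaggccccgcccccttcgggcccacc

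Mitochondrial respiratory chain genes made up the one large list in which no gene was called. None of 40 genes was higher or lower by limma at 2-fold (7 higher and 13 lower at an unadjusted p below 0.05), the log2 differences ran from -0.70 to 0.87, and the median was -0.05. In the list of antioxidant and detoxifying enzymes, by contrast, 9 of 37 tested genes were higher and 9 lower (median -0.13). Cyp1a1 and Cyp1b1, which encode cytochromes that the aryl hydrocarbon receptor induces, were on opposite sides. Cyp1a1 read 15.9 and 14.5 in OP9 and 2329.7 and 2178 in MC3T3 cells (148-fold lower, limma, adjusted p = 5.2e-09), and Cyp1b1 6909.6 and 6687 against 222 and 199 (32.3-fold higher, limma, adjusted p = 7.99e-08). Nqo1 and Gclm, targets of the oxidative stress factor NRF2, were 11.5-fold and 2.98-fold lower in OP9 cells. The metallothionein gene Mt2 read 679 and 649 in OP9 and 9572 and 9177 in MC3T3 cells, and Sod3, encoding the extracellular superoxide dismutase, 1139.8 and 1156 against 58.7 and 59.5.

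**Figure D4:**
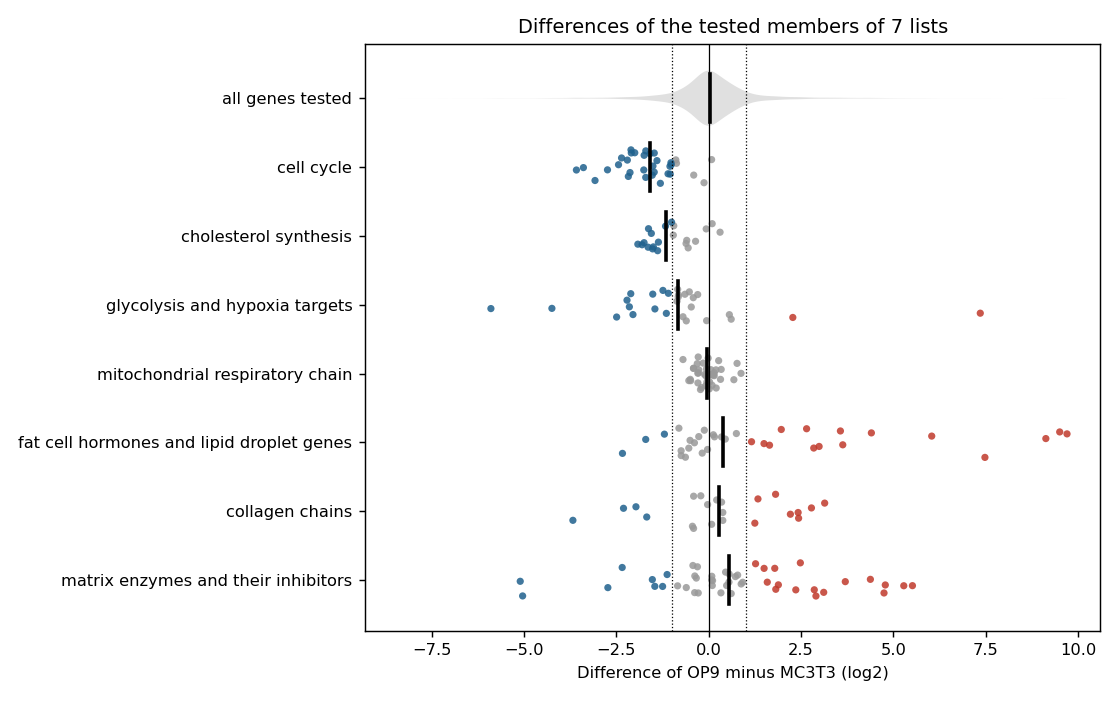
Log2 difference of OP9 minus MC3T3 (horizontal axis) for the tested genes of 7 lists, with red and blue points for genes called higher and lower, grey points for genes not called, black bars for medians and dotted lines at 2-fold, beside the distribution of all 10084 genes tested as a grey shape whose height shows how many genes have a difference. The cell cycle and cholesterol lists lie mostly to the left with medians of -1.59 and -1.17, the respiratory chain list lies around 0, and the fat cell and matrix lists spread to both sides.

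Bone, cartilage and stroma are largely matrix. Of 22 tested collagen genes, 8 were higher and 4 lower in OP9 cells (median log2 difference 0.28). The 3 chains of collagen VI, which forms microfibrils around cells, were all higher, with a median of 2.78. Col6a2 read 10723 and 10676 in OP9 and 1172 and 1259 in MC3T3 cells (8.81-fold), Col6a1 10437 and 10040.5 against 1498 and 1482 (6.87-fold), and Col6a3 8633 and 8401 against 1592 and 1563 (5.4-fold). Col4a1, a basement membrane chain, was 5.35-fold higher. Col8a2, encoding a short-chain collagen, read 17.6 and 18.2 against 220.1 and 238 and was 12.8-fold lower in OP9 cells, as was Col8a1 (3.91-fold). Col1a2, the partner chain of Col1a1, read 16445 and 16586 in OP9 and 14355 and 14084 in MC3T3 cells and Col3a1 2722 and 2787 against 3728 and 3745, both less than 2-fold apart. Each called collagen gene named had an adjusted p of 3.91e-06 or less from limma.

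Of 50 tested genes of proteoglycans, elastic fibres and matricellular proteins, 21 were higher and 6 lower (median log2 difference 0.62). Efemp1, encoding a fibulin, read 4734 and 5325 in OP9 and 8.15 and 10.1 in MC3T3 cells (553-fold higher). The small leucine-rich proteoglycans, which bind collagen fibrils, were divided. Aspn read 622 and 649 against 23.4 and 22.7 (27.6-fold higher in OP9 cells), Dcn 51.2 and 48.9 against 1072 and 1125 (21.9-fold lower), and Lum 39.2 and 30.9 against 693 and 768 (21-fold lower). Asporin thus marked the OP9 arrays, and decorin and lumican the MC3T3 arrays. The CCN family was divided too, with Ccn2, encoding connective tissue growth factor, 14.5-fold higher and Ccn3 37.4-fold lower in OP9 cells. Ltbp2, encoding a protein of elastic microfibrils, was 20.1-fold higher.

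Among matrix enzymes and their inhibitors, 17 of 47 tested genes were higher and 8 lower (median log2 difference 0.55). Of 9 tested matrix metalloproteinases, which cut matrix proteins, 6 were higher and 1 was lower, and of 3 tested tissue inhibitors of these enzymes none was higher and 2 were lower (0 higher and 2 lower at an unadjusted p below 0.05 from limma). Of 12 metalloproteinase genes on the array, 7 had a mean of 100 or above in OP9 and 5 in MC3T3 cells, so that their count depends in part on the filter. Mmp23 read 1539 and 1471 in OP9 and 52.7 and 57 in MC3T3 cells (27.5-fold higher), and Mmp16, encoding a membrane-bound enzyme, 71.7 and 52.6 against 1846 and 2402 (34.3-fold lower). The inhibitor gene Timp3 read 388 and 391 against 2666 and 2501 (6.63-fold lower). Enpep, encoding an aminopeptidase of pre-B cells and stroma, read 4349 and 4379 against 92.8 and 98.3, and Fap, encoding the fibroblast activation protein, 273 and 246 against 9.42 and 9.95, both higher in OP9 cells. Loxl1, encoding an enzyme that cross-links elastin, was 38.8-fold higher. Pcolce2, encoding an enhancer of procollagen processing, was 32.8-fold lower. Adjusted p from limma was at most 3.7e-07 for these 7 genes.

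Of 27 tested contractile and cytoskeletal genes, 6 were higher and 3 lower in OP9 cells (median log2 difference 0.23). Actg2, encoding a smooth muscle actin, read 289 and 265 in OP9 and 26.9 and 28.4 in MC3T3 cells (10.02-fold higher), and Tagln, encoding the smooth muscle protein transgelin, 312 and 348 against 101 and 117. Fhl1, encoding a LIM protein of muscle, read 24.8 and 21.1 against 904 and 923 and was 39.97-fold lower in OP9 cells (limma, adjusted p = 2.35e-07). Vim, encoding the intermediate filament protein of mesenchymal cells, read 15727 and 16472 against 20534 and 19724 and was not called.

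Adhesion molecules hold cells to the matrix and to each other. Of 36 tested integrins, cadherins and other adhesion molecules, 6 were higher and 14 lower in OP9 cells (median log2 difference -0.48). Cd34, encoding a sialomucin of blood progenitors, vessels and some fibroblasts, read 10.5 and 10.7 in OP9 and 3858 and 3308 in MC3T3 cells (337-fold lower, log2 difference -8.40 ± 0.09 (SE), limma, adjusted p = 2.54e-09). Thy1, a surface marker of fibroblasts and mesenchymal progenitors, read 22.4 and 22.6 against 1255 and 1104 (52.3-fold lower), and Cdh2 29.6 and 23 against 1576 and 1379.9 (56.6-fold lower). All 3 were below 50 on both OP9 arrays. Itga8, encoding an integrin chain, was 30.1-fold lower, at 13.5 and 18.4 against 511 and 439.9. In the other direction Icam1, encoding a ligand of leukocyte integrins, read 305 and 298 in OP9 and 27.8 and 26.8 in MC3T3 cells (11-fold higher), Itga1, encoding a collagen-binding integrin chain, 165 and 174 against 22.7 and 16.8 (8.67-fold higher), and the protocadherin gene Pcdh7 239 and 226 against 9.99 and 10.3 (22.9-fold higher). Jam2 was 6.65-fold higher in OP9 cells, while Ncam1 read 398 and 399 against 494 and 469.9 and was not called.

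Guidance genes steer growing axons and migrating cells, and SLIT ligands act on ROBO receptors, semaphorins on plexins and neuropilins. Of 33 tested, 11 were higher and 5 lower in OP9 cells (median log2 difference 0.43). Slit2 read 13.3 and 12.9 in OP9 and 2987 and 2995 in MC3T3 cells (228-fold lower), and its receptor gene Robo1 232 and 220.3 against 26.2 and 26.3 (8.62-fold higher). The ligand gene was thus high in MC3T3 and the receptor gene in OP9 cells. The neuropilin genes, which both encode receptors, lay on opposite sides. Nrp1 read 1820.2 and 1972 in OP9 and 131 and 138 in MC3T3 cells (14.1-fold higher), and Nrp2 71.7 and 67.5 against 973 and 1023 (14.3-fold lower). Of the semaphorin genes, Sema5a read 572 and 708 in OP9 and 19 and 14.7 in MC3T3 cells, and Sema3a 138 and 119 against 2034 and 1848. The largest adjusted p of these 6 genes was 5.42e-07 from limma.

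Hox genes and other positional factors record where in the body a mesenchymal cell came from. In this list 11 of 28 tested genes were higher and 6 lower in OP9 cells (median log2 difference 0.28). Of 5 tested genes of the Hoxa cluster, 4 were higher in OP9 cells and none lower (4 higher and 0 lower at an unadjusted p below 0.05 from limma). Of 9 Hoxa genes on the array, 5 had a mean of 100 or above in OP9 and 3 in MC3T3 cells, so that the count depends in part on the filter. None of 3 tested genes of the Hoxb, Hoxc and Hoxd clusters was called (0 higher and 1 lower at an unadjusted p below 0.05 from limma). Hoxa2 read 243 and 228 in OP9 and 18.3 and 20.3 in MC3T3 cells (12.2-fold higher). Hoxa3 was 7.03-fold higher by the _s_at probe set used, but its other 3 probe sets gave log2 differences of 0.25 to 0.51. Eya1 read 12.2 and 12.6 against 1584 and 1176 (109.96-fold lower), Alx1, a factor of the cranial mesenchyme, 10.4 and 13.3 against 466 and 500.4 (40.9-fold lower), and Six2, a partner of EYA proteins, 115 and 129 against 1016 and 1183 (9.01-fold lower). Pax3, a factor of the neural crest and muscle progenitors, read 29.6 and 28.5 in OP9 and 127 and 144 in MC3T3 cells (4.65-fold lower). These 4 developmental genes had both MC3T3 arrays above 100, and Eya1, Alx1 and Pax3 both OP9 arrays below 50. Tbx2, a T-box factor, read 104 and 103 against 16.4 and 17.2 (6.17-fold higher in OP9 cells). The largest adjusted p of these called genes was 8.74e-06 from limma. Whether any of these differences reflects the site in the body from which a line was taken was not tested.

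Transcription factors of other lineages had 1 of 9 tested genes higher and 4 lower (median log2 difference -0.86). Hmga2, encoding a chromatin protein of embryonic and tumour cells, read 421 and 433 in OP9 and 9716 and 10476 in MC3T3 cells (23.6-fold lower, limma, adjusted p = 6.67e-09), and all 4 of its probe sets lay lower in OP9 cells. Tfap2b and Tfap2a, factors of the neural crest, were 12-fold and 8.14-fold lower, with both OP9 arrays below 50 for each (12.9 and 12.8 and 28.4 and 31.2). Gata6, a factor of heart and endoderm, read 213 and 205 against 28.6 and 37.8 and was 6.37-fold higher in OP9 cells. Osr1, a factor of early mesoderm, was 2.51-fold lower, with MC3T3 arrays at 685 and 1461, and without MC3T3 replicate 2 its log2 difference was -0.78, below the minimum fold.

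Complement and acute phase proteins belong to innate defence, and 8 of 16 tested genes were higher and 2 lower in OP9 cells (median log2 difference 1.40). Hp, encoding haptoglobin, which fat cells also make, read 3319 and 3416 in OP9 and 36.5 and 28.8 in MC3T3 cells (104-fold higher, limma, adjusted p = 2.14e-07). Cp, encoding ceruloplasmin, read 1295 and 1329.5 against 119.8 and 122 (10.9-fold higher), and Cd59a, encoding an inhibitor of the complement pore, 693 and 619 against 38.2 and 29.7 (19.4-fold higher). Ptx3, encoding a long pentraxin, was 6.03-fold lower, at 162 and 142 against 1005 and 832. Of 29 tested interferon response genes, 6 were higher and 1 lower (median 0.53). This was 20.7% higher and 3.45% lower, against 10.5% and 9.41% over all genes tested. Usp18, encoding a brake of interferon signalling, read 130.1 and 128 against 24.5 and 23.2 (5.43-fold higher), and Psmb9, an immunoproteasome subunit, 300.4 and 308 against 57.9 and 46.8 (5.85-fold higher). Gbp2, encoding a guanylate-binding protein, was 2.93-fold lower.

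In the list of MHC class I and antigen processing 3 of 17 tested genes were higher and 3 lower (median log2 difference -0.01). This was 17.6% each way, against 10.5% higher and 9.41% lower over all genes tested. The class I heavy chain genes H2-K1 and H2-D1 are among the 3 lower genes by the probe sets used, with 152 and 109.5 against 3166 and 2621 and 385 and 419.6 against 4005 and 3837. These are _x_at probe sets, which can bind related transcripts, and the lines are labelled with different strains, whose class I genes differ in sequence. Whether either has a part in these calls was not tested. The other probe sets of H2-K1 gave log2 differences of -2.80, -0.75 and -0.44. Other probe sets of H2-D1 gave -5.71, -4.52 and -2.99, and those below 100 in both lines 0.26 to 0.63. One more H2-D1 probe set read the opposite way, with means of 637 in OP9 and 21.4 in MC3T3 cells. The direction of H2-D1 thus depends on the probe set. B2m, encoding the shared light chain, had means of 12370.4 and 11496 and was not called. Tap2, encoding a peptide transporter, read 601 and 592 against 200.01 and 191 (3.05-fold higher in OP9 cells).

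Imprinted genes, of which one parental copy is active, had 6 of 14 tested higher and 2 lower in OP9 cells (median log2 difference 0.64). Mest read 3038 and 3169 in OP9 and 29.2 and 31.8 in MC3T3 cells (102-fold higher, limma, adjusted p = 4.31e-09). Dlk1 and Igf2, described above, and Plagl1, encoding a zinc finger factor, were also higher, and Dcn and Igf2r, encoding the receptor that clears IGF2, lower. Igf2r read 754 and 764 in OP9 and 1755 and 1715 in MC3T3 cells. Of the genes of X inactivation and the Y chromosome 2 were tested, and neither was called by limma (0 higher and 1 lower at an unadjusted p below 0.05).

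Markers of cell types that the cultures could also hold were at low levels in both lines. Of 22 leukocyte and macrophage genes 6 were tested, 1 was higher and none lower by limma (3 lower at an unadjusted p below 0.05), and their summed level was 947 and 999 on the OP9 and 980.4 and 948 on the MC3T3 arrays. The defining gene Ptprc read 8.93 and 8.58 in OP9 and 11.8 and 11.3 in MC3T3 cells, and Cd68, also found in lysosomes of other cells, 121 and 129 against 21.8 and 22.4. No marker of endothelium, epithelium or skeletal muscle was called (1 of 1, 2 of 4 and 2 of 2 tested at an unadjusted p below 0.05), and Pecam1, Cdh1 and Myod1 stayed below 25 on all 4 arrays. Of 14 B-lineage genes 5 were tested, and Ebf1 and Cd24a were higher in OP9 cells and none lower (2 lower at an unadjusted p below 0.05). Their summed level was 2873 and 2644 on the OP9 and 735 and 673 on the MC3T3 arrays, of which Ebf1 alone made up 2146 and 1922 and 139 and 122. The defining B cell genes Cd79a and Pax5 read 33.8 and 34 and 35.7 and 31.6 in OP9 and 33.5 and 27.3 and 41.9 and 40.3 in MC3T3 cells.

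Set side by side, the lists differed in how far their counts departed from the shares of 10.5% higher and 9.41% lower over all genes. The cell cycle list had 84.8% of its tested genes lower and none higher, and the cholesterol list 57.1% lower and none higher. Shares higher in OP9 cells were 54.5% for the interleukin list, where 5 in place of 6 genes were called higher without any one of the 4 arrays, and 50% for complement and acute phase, with 8 to 9 genes. These 2 shares rest on the 11 of 30 and 16 of 32 genes on the array that passed the filter. With no filter on low values, 6 of 30 interleukin list genes were higher and 4 lower. For complement and acute phase, 8 of 32 were higher and 2 lower. No list was tested as a set, and all shares describe the members chosen.

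**Figure D5:**
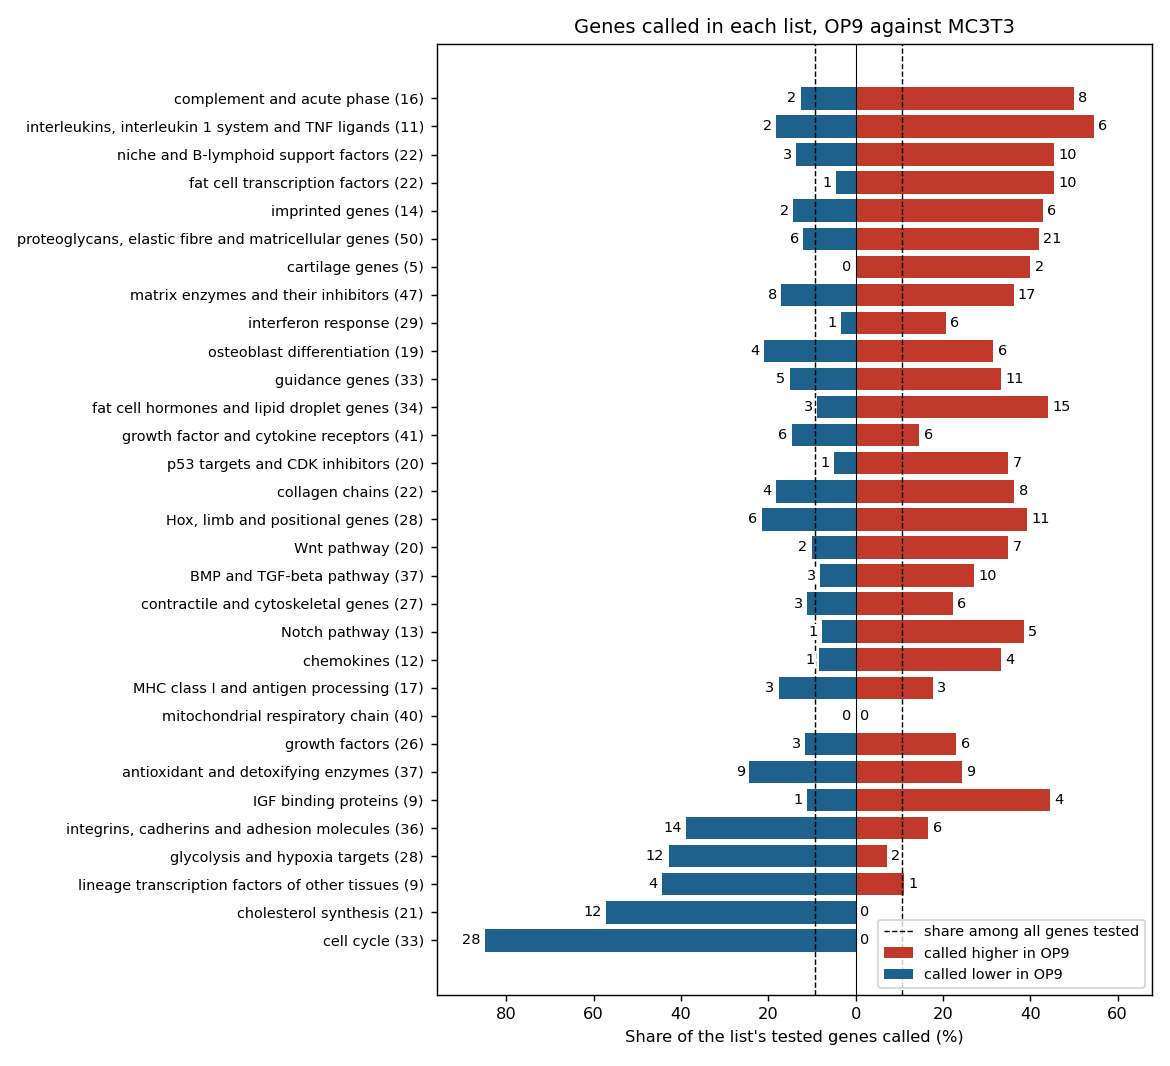
Share of the tested genes of each list (number tested in brackets) called higher (red, to the right) or lower (blue, to the left) in OP9 than in MC3T3 cells, in percent, with the number of genes at the end of each bar, ordered by median log2 difference, and dashed lines at the shares of all genes tested. Cell cycle and cholesterol synthesis stand at the bottom with 28 of 33 and 12 of 21 genes lower, and the respiratory chain list has no bar.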

How the data were processed

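RNA of 8 samples, 2 in each of 4 groups, was measured on Affymetrix GeneChip mouse whole-genome arrays, and 4 arrays enter the comparison. Per the labels, RNA was amplified and labelled from a small number of cells. The deposited values are intensities that the authors normalized between arrays and gave on a linear scale. The study names RMA Express, affylmGUI and dChip, without saying which of them made these values. Background correction and the summary over probes set how far low values are compressed, so that folds against a line near background depend on that step.

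Of 45101 probe sets, 34958 carried 1 gene symbol in the platform annotation, 932 several and 9211 none, and those with 1 symbol were used. Values were taken to log2 with a pseudocount of 0. Genes that reached 100 on 2 or more of the 8 arrays were fitted with limma 3.58.1 (R 4.3.3, lmFit and eBayes) as 4 group means, and p-values were adjusted by Benjamini-Hochberg over all genes tested. The fit was tested on simulated data. Arrays have no read depth, and 2 arrays per group limit the precision. Named genes were members of the study's tables, the 12 largest called differences each way, up to 4 called members per list and direction, and cell type markers. B2m, Cd36, Cdk2, Cdk4, Cdkn1a, Cebpb, Cebpd, Fasn, Hif1a, Mki67, Scap and Srebf2 were named after their values were seen. Members and lists were chosen with earlier results of these data known. The smaller groups within lists were not among the planned results. They include the frizzled receptors, collagen VI chains, metalloproteinases and their tissue inhibitors, Hox clusters, glycolytic enzymes and cholesterol enzymes. Alternatives covered the filter, scaling, pseudocount, probe set choice, minimum fold, arrays in the fit, replicate block and each array left out.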

Additional observations from a re-analysis of the deposited data

How the results depend on the processing

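Against 1062 genes higher and 949 lower in OP9 than in MC3T3 cells, 1786 and 1631 probe sets were called when each probe set was tested on its own, 3588 and 3125 genes without a minimum fold, and 322 and 231 with a minimum fold of 5. These differences follow from the number of features tested and from the fold required. The other settings kept both counts within 1.5 times, from 831 and 747 with the probe sets of a gene averaged to 1224 and 1067 with no filter on low values. Quantile normalization gave 1018 and 984 and median scaling 1039 and 988. Leaving out each array in turn gave 1058 to 1100 higher and 949 to 959 lower genes and a median log2 difference of 0.0301 to 0.0381, with the lone array of a line assumed to vary like the other groups. A fit on 6 arrays without NIH3T3, chosen after seeing the data, gave 1063 and 949. With a replicate block, counts were 1062 and 949 with the same 2011 genes called. Same-numbered OP9 and MC3T3 arrays deviated together with r = 0.181, the other group pairs with r between -0.00385 and 0.0564, and with 2 pairs and no label of a shared culture or day the numbers were not taken as pairs.

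No named gene that was called turned its direction under these settings, but single probe sets can differ in direction, as for H2-D1. With the mean of the probe sets Cd80, Igf1, Il1r1, Lifr, Notch1, Plagl1, Rspo2 and Tpm2 lost their call, with a pseudocount of 16 Il16 did, and with _x_at and _s_at probe sets left out Hoxa3 did (log2 difference 0.25, adjusted p = 0.242 from limma). With no filter, 7 chemokine genes were higher in place of 4, 5 Wnt pathway genes lower in place of 2 and 4 interleukin list genes lower in place of 2. At a minimum of 200 the fat cell transcription factors called higher were 6 in place of 10. With the mean of the probe sets, imprinted genes called higher were 3 in place of 6, guidance genes called lower 3 in place of 5 and Wnt genes called lower 0 in place of 2. Without _x_at and _s_at probe sets, Notch pathway genes called higher were 2 in place of 5. For genes near background in one line the size of the fold depends on the background.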
